A study of Mus musculus with 6 samples.

Results

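The genes described here are 30 genes of sterol and fatty acid synthesis, chosen by function from the 31771 genes counted in mouse spleen. They comprise 8 genes of the mevalonate and isoprenoid steps, 11 of the route from squalene to cholesterol, 6 that control the pathway or carry sterol, and 5 of fatty acid synthesis and desaturation. All 30 were found by symbol and all 30 passed the expression filter that left 19573 genes for testing.

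RNA was sequenced from pieces of spleen of 3 mutant and 3 WT mice, all labelled C57BL/6. The mutant genotype is VEC-Cre;SB Transposase; onc2, in which Cre recombinase is driven by the VE-cadherin promoter, SB is the Sleeping Beauty transposase and onc2 is the transposon that it mobilises to new genomic sites, where it can activate or break genes. VE-cadherin is a protein of endothelium, and Cre under its promoter also marks blood cells that arise from embryonic endothelium, so insertions can differ between cells and between animals. The controls carry the label WT only, and the labels give no age, litter or batch. The stated aim was to assess cellular composition.

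Cells make cholesterol from acetyl-CoA through mevalonate, isoprenoids, squalene and lanosterol, and the same acetyl-CoA feeds fatty acid synthesis. Both branches are controlled by the SREBP transcription factors, which are made as membrane proteins. The escort protein Scap takes them to the Golgi for cleavage when sterol is scarce, and the Insig proteins hold Scap back when sterol is plentiful. Dividing cells need new membrane, and lymphocytes raise this programme when they are activated.

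Levels are CPM, counts scaled to a common library size with TMM factors, which adjust library totals for RNA composition. Fold changes are log2 of mutant over WT from edgeR's quasi-likelihood test with their SE, with Benjamini-Hochberg adjusted p-values over all 19573 genes and a threshold of 0.05. Groups are given as mean ± SD (n = 3 each). Each library held 72902118 to 79258116 counts. Over all genes tested the median log2 fold change was 0.10, and a variation of 73.2% between mutants (biological coefficient of variation) compares with 17.1% between WT spleens. The B-cell markers listed summed to 44.2 to 101 CPM in mutants and 6281 to 7002 CPM in WT spleens, and all 10 fell. Macrophage markers, led by C1qa, summed to 344, 8901 and 737 CPM in mutants 1, 2 and 3 and 1221 to 1663 CPM in WT spleens. Xist was at 1513, 580 and 0.586 CPM of library total in mutants 1, 2 and 3 and at most 0.663 CPM in WT spleens. The Y-linked Ddx3y was at 0.0412, 0.0269 and 60.4 CPM in mutants and 55.0 to 62.7 CPM in WT spleens, so mutants 1 and 2 read as female and all other spleens as male. A fit with sex as a term therefore leaves mutant 3 alone to set the genotype effect. Pi4ka, the kinase gene named in the study's title, was at 81.6, 98.7 and 104 CPM in mutants and 109, 121 and 126 CPM in WT spleens, and did not pass (adjusted p = 0.238 by edgeR).

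Of the 30 genes, 3 fell in the mutant spleens: the fatty acid desaturase gene Scd1, the transcription factor gene Srebf2 and the synthase gene Hmgcs1. None of the 30 rose. Among all genes tested 6.90% fell and 5.08% rose, and 3 of 30, or 10%, lower lies near that background. The median log2 fold change of the 30 genes was -0.02, beside 0.10 over all genes tested, with 14 genes above 0 and 16 below. Scd1 stood apart in size, at -4.64, while the other 29 lay between -0.88 and 1.05. In tissue RNA, fewer cells of a type and less RNA per cell cannot be told apart.

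Without any single WT library the calls dropped to 0 lower and 0 higher, while over all genes they dropped to 119 to 130 lower and 4 to 8 higher. Leaving out a mutant could instead raise the calls over all genes, as given under how the results depend on the processing. At an unadjusted p under 0.05, edgeR with all libraries gave 2 of the 30 genes as higher, Nsdhl and Acaca, and 6 as lower, where 16.2% of all genes were higher and 15.0% lower. DESeq2 gave 1 higher and 5 lower, limma-voom 0 and 3, and limma-voom with sample weights 2 and 4. Over all 19573 genes these tests gave 2841 higher and 2809 lower, 977 and 1949, and 1842 and 1840. In 8 of the 30 genes every mutant lay below every WT spleen, against 22.9% of all genes, and in 5 every mutant lay above, against 19.4%. With library totals in place of TMM factors these numbers were 10 lower and 2 higher, against 22.6% and 18.0%.

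**Figure D1:**
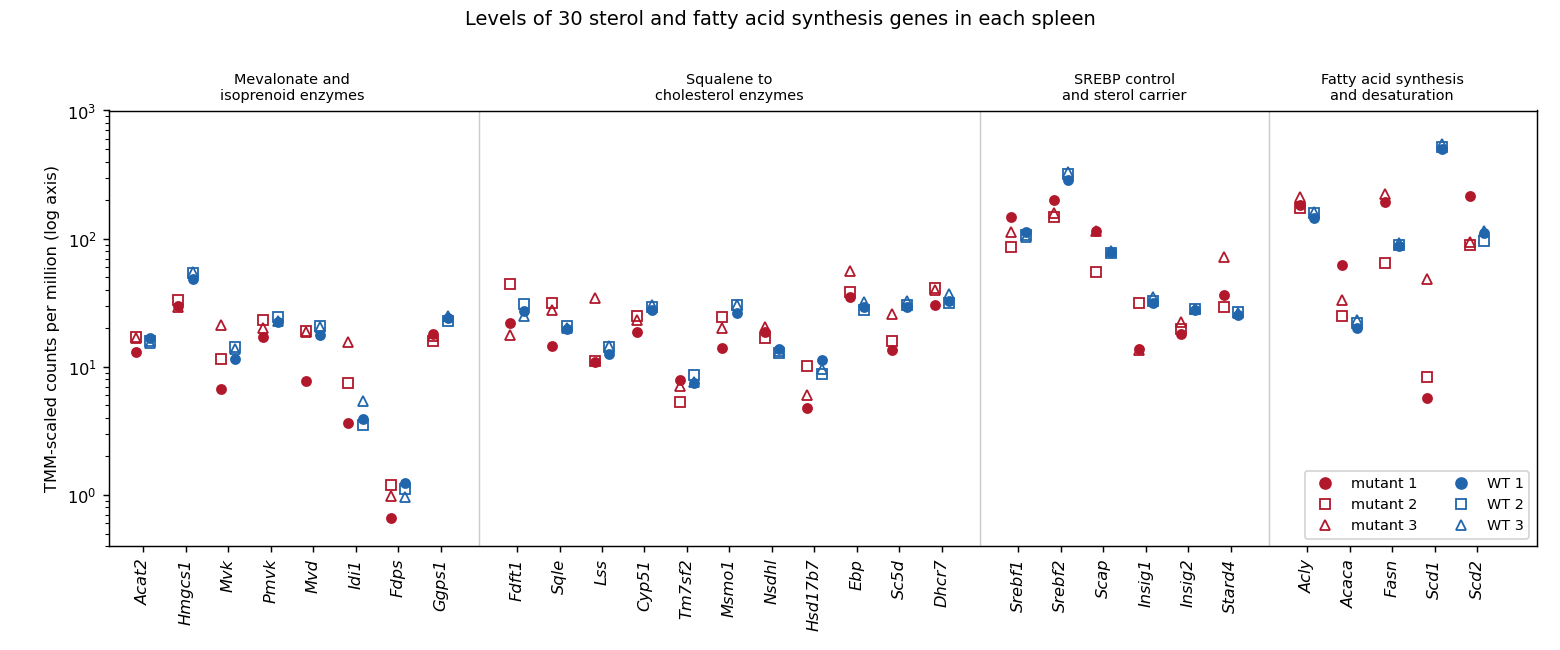
Levels of the 30 genes in each spleen, in TMM-scaled CPM on a log axis, with mutants in red left of WT in blue and a symbol for each animal. Scd1 is the gene with the widest gap, at 5.72 to 48.9 CPM in mutants and 505 to 543 CPM in WT spleens.

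Promoter windows from RefSeq (build GRCm38.p6) are shown for Hmgcs1 and Srebf2, the genes that fell for which the table holds a window. Each ends before the earliest start in RefSeq or GENCODE, and the + strand is printed. Capitals mark 3 of 4 motifs, searched on both strands, namely TCACNCCAC, a sterol regulatory element to which SREBP proteins bind, CCAAT, the box of the factor NF-Y, and GGGCGG, the box of Sp1, the last 2 being known partners of SREBP. The motifs share no letters with one another in these windows.
Hmgcs1, chr13:119690101-119690350: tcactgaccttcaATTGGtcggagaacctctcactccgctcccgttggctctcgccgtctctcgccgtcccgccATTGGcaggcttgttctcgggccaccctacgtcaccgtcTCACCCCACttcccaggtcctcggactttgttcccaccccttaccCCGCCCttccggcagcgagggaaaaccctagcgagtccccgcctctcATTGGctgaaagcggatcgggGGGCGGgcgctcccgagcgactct
Srebf2, chr15:82147019-82147180: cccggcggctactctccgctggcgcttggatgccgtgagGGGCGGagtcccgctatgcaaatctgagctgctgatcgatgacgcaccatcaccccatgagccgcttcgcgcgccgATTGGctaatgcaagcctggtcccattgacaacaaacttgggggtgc

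The Hmgcs1 window held the sterol element 137 bases before the RefSeq start, with 3 CCAAT boxes and 2 GC boxes. Over the 250 bases before each start, 24 of the 30 genes had a window. The sterol element was in 1 of the 24, Hmgcs1, or 4.17%, against 1.32% of 12697 tested genes with a window and 1.22% of all 27025 genes with one. Only exact matches to its letters were counted, so a window without a match may still hold another form of the element. The CCAAT box was in 20 of the 24, or 83.3%, against 39.4% of tested genes and 37.5% of all genes. The GC box was also in 20, or 83.3%, against 58.3% of tested genes and 35.4% of all genes. Among 44 further genes of the pathway with a window, 4.55% held the sterol element, 61.4% the CCAAT box and 68.2% the GC box. The E box CACGTG, a palindrome that SREBP proteins can also bind, was in 5 of the 24, or 20.8%, in 20.5% of the further pathway genes, 9.1% of tested genes and 6.86% of all genes.

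The mevalonate steps were led by Hmgcs1, the synthase that makes HMG-CoA (ENSMUSG00000093930, chromosome 13, 119690379 to 119708260). Hmgcs1 was at 29.8, 33.2 and 29.1 CPM in mutants 1, 2 and 3, against 48.0, 53.7 and 54.5 CPM in WT spleens. The groups did not overlap, and the 3 mutants were nearly equal. The mean was 30.7 ± 2.21 CPM in mutants and 52.1 ± 3.53 CPM in WT spleens (log2 -0.76 ± 0.16, adjusted p = 0.0333 by edgeR). Hmgcs1 did not pass by edgeR without WT 1, 2 or 3 (adjusted p = 0.140, 0.179 and 0.185) or without mutant 3 (adjusted p = 0.0521). Mutant 3, which alone sets the effect with sex as a term, differed from the WT mean by -0.84 on the log2 scale.

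The remaining mevalonate genes did not pass. Ggps1, which makes the geranylgeranyl chain that anchors small GTPases, was the other gene of this group without overlap. With Hmgcs1 it made 25.0% of the 8 genes lower without overlap, near the 22.9% of all genes. Ggps1 was at 18.1, 16.0 and 17.5 CPM in mutants and 23.9, 22.6 and 25.1 CPM in WT spleens (log2 -0.47 ± 0.18, adjusted p = 0.137 by edgeR). Hmgcs1 and Ggps1 had coefficients of variation of 7.21% and 6.39% among the mutants, the lowest of the 30 genes, whose median was 31.7% in mutants and 6.12% in WT spleens. The same median over all genes tested was 44.0% in mutants and 10.6% in WT spleens, and all 30 genes varied more among mutants.

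Idi1, the isomerase that turns the first isoprenoid into its reactive form, was at 3.62, 7.47 and 15.6 CPM in mutants and 3.90, 3.54 and 5.44 CPM in WT spleens (log2 1.05 ± 0.57, adjusted p = 0.265 by edgeR). Mutant 1 lay within the WT range and mutant 3 well above it. Mevalonate kinase, Mvk, was at 6.76, 11.5 and 21.1 CPM in mutants and 11.4, 14.3 and 13.9 CPM in WT spleens (log2 -0.01 ± 0.44, adjusted p = 0.993). Mvd, the decarboxylase that ends the mevalonate steps, was at 7.80 CPM in mutant 1, against 19.2 and 18.5 CPM in mutants 2 and 3 and 17.8 to 20.8 CPM in WT spleens. Mvk and Mvd thus had their lowest value of all 6 spleens in mutant 1.

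Pmvk, which phosphorylates mevalonate a second time, and Acat2, the cytosolic thiolase that joins acetyl-CoA units, had log2 fold changes of -0.21 and -0.03. Fdps, the farnesyl diphosphate synthase, was at 0.662 to 1.19 CPM in mutants and 0.962 to 1.25 CPM in WT spleens. The annotation places another protein-coding gene, Gm43738, over Fdps on the same strand, and how reads shared by both were counted is not given in the sources used here. The Fdps values are therefore uncertain as levels.

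No gene of the squalene to cholesterol group passed, with 0 higher and 0 lower of 11 by edgeR. At an unadjusted p under 0.05, Nsdhl was higher and Sc5d lower, where 16.2% of all genes were higher and 15.0% lower. DESeq2 called Nsdhl alone of these 11 (adjusted p = 0.00491), and limma-voom called 0. The group held genes without overlap in both directions, namely Nsdhl and Ebp above and Cyp51, Msmo1 and Sc5d below the WT spleens. These shares, 18.2% above and 27.3% below, lie near the 19.4% and 22.9% of all genes.

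Nsdhl, a dehydrogenase that removes methyl groups from lanosterol products, was at 18.6, 16.9 and 20.5 CPM in mutants and 13.7, 12.9 and 13.2 CPM in WT spleens (log2 0.49 ± 0.20, adjusted p = 0.158 by edgeR). Ebp, the sterol isomerase that also binds emopamil, was at 35.3, 38.2 and 55.9 CPM in mutants and 29.2, 27.5 and 32.3 CPM in WT spleens (log2 0.54 ± 0.23, adjusted p = 0.172). Both genes lie on the X chromosome. Mutant 3, which like the WT spleens had almost no Xist, held the highest value of both. With sex as a term in the model, where mutant 3 alone sets the effect, their log2 fold changes were 0.63 and 0.91.

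Sc5d, which introduces a double bond near the end of the pathway, was at 13.6, 16.0 and 25.9 CPM in mutants and 29.5, 30.3 and 32.7 CPM in WT spleens (log2 -0.74 ± 0.28, adjusted p = 0.139 by edgeR). Without mutant 3 it passed (log2 -1.06, adjusted p = 0.0330). Msmo1, a methylsterol oxidase, was at 14.0, 24.6 and 20.1 CPM in mutants and 26.4, 30.2 and 30.3 CPM in WT spleens (log2 -0.57 ± 0.25, adjusted p = 0.189). Cyp51, the lanosterol demethylase, was at 18.6, 25.1 and 23.0 CPM in mutants and 27.8, 29.2 and 30.5 CPM in WT spleens (log2 -0.39 ± 0.19, adjusted p = 0.218). In all 3 genes mutant 1 was the lowest spleen.

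Lss, which closes the sterol rings to give lanosterol, was at 10.8, 11.0 and 34.6 CPM in mutants and 12.7, 14.2 and 14.6 CPM in WT spleens. Mutant 3 lay above every WT spleen and mutants 1 and 2 below every WT spleen (log2 0.45 ± 0.50, adjusted p = 0.587 by edgeR). With sex as a term, where mutant 3 alone sets the effect, the log2 fold change of Lss was 1.32. Without mutant 3 it was below 0 (log2 -0.34, adjusted p = 0.310 by edgeR). Fdft1, the squalene synthase, was highest of all spleens in mutant 2, at 43.9 CPM, and lowest in mutant 3, at 17.7 CPM. The squalene epoxidase gene Sqle was at 14.6, 31.7 and 27.6 CPM in mutants and 19.8 to 20.9 CPM in WT spleens. Tm7sf2 and Dhcr7, both sterol reductases, and Hsd17b7, a ketosterol reductase, had log2 fold changes of -0.21, 0.14 and -0.50 with overlapping groups.

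**Figure D2:**
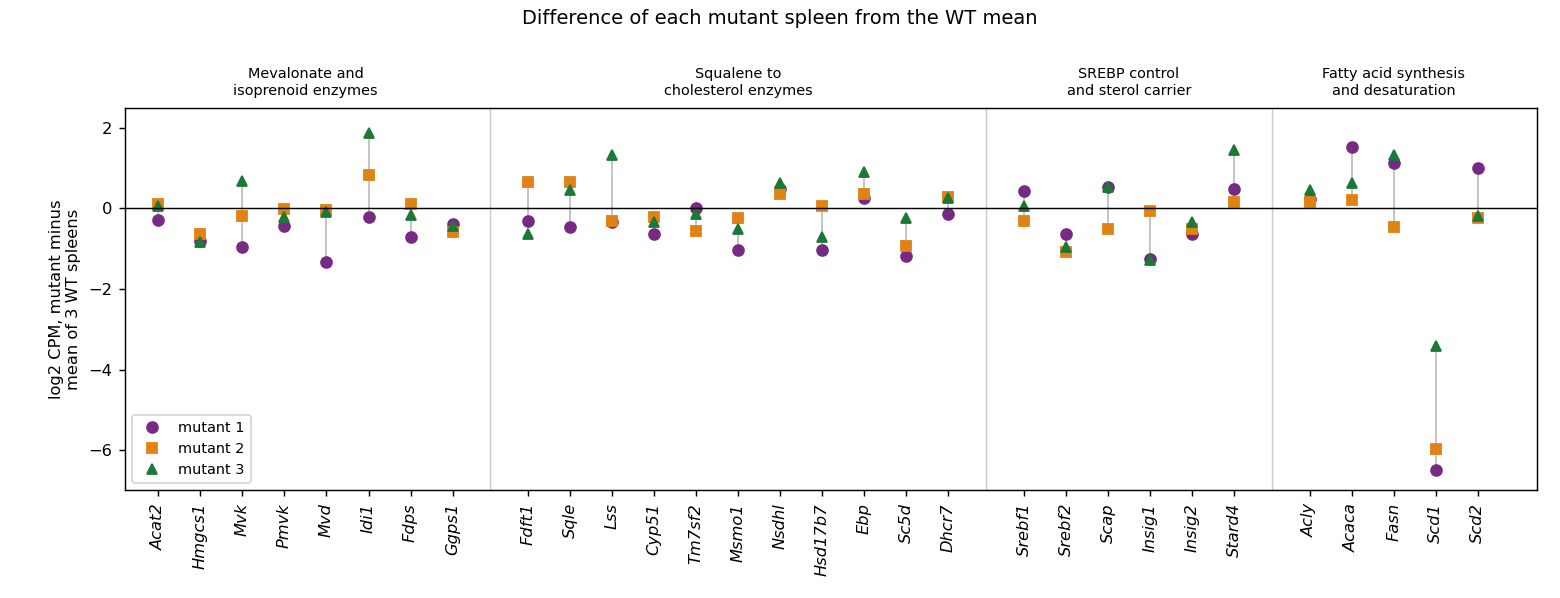
Difference of each mutant spleen from the mean of the 3 WT spleens in log2 CPM for the 30 genes, with a symbol and colour for each mutant and a grey line joining the lowest and highest. In 14 genes the mutants lie on both sides of 0, in 11 all 3 lie below and in 5 all 3 lie above, and Scd1 lies between -6.50 and -3.42.

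Among the genes of control, Srebf2 fell. Srebf2 encodes the SREBP protein that mainly drives cholesterol synthesis (ENSMUSG00000022463, chromosome 15, 82147181 to 82205379). It was at 201, 147 and 159 CPM in mutants 1, 2 and 3, against 285, 321 and 329 CPM in WT spleens. The groups did not overlap. The mean was 169 ± 28.4 CPM in mutants and 312 ± 23.8 CPM in WT spleens (log2 -0.88 ± 0.19, adjusted p = 0.0365 by edgeR). The microRNA gene Mir33 lies within Srebf2. The call was lost by edgeR without WT 1, 2 or 3 (adjusted p = 0.138, 0.172 and 0.177) and without mutant 3 (adjusted p = 0.0707). Mutant 3, which alone sets the effect with sex as a term, differed from the WT mean by -0.97 on the log2 scale. The B-cell marker levels given above were lower in the same 3 mutants as Srebf2 and Hmgcs1, and their part in either result was not tested.

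Srebf1, whose protein mainly drives fatty acid genes, did not pass. It was at 146, 85.9 and 112 CPM in mutants and 113, 107 and 103 CPM in WT spleens (log2 0.09 ± 0.22, adjusted p = 0.806 by edgeR). Per exon length, Srebf1 made up 48.1%, 42.6% and 47.5% of the Srebf1 and Srebf2 signal in mutants and 33.7%, 29.8% and 28.4% in WT spleens. That share was 46.1 ± 2.99% in mutants and 30.6 ± 2.73% in WT spleens, with every mutant above every WT spleen (p = 0.1 by a 2-sided exact permutation test, for which no smaller value exists with 3 animals a group; adjusted over 3 shares p = 0.15).

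Insig1, an SREBP target whose protein retains Scap, split the mutants. It was at 13.7 and 13.6 CPM in mutants 1 and 3 but 31.7 CPM in mutant 2, against 31.5, 32.9 and 35.1 CPM in WT spleens (log2 -0.75 ± 0.37, adjusted p = 0.227 by edgeR). Without mutant 2 the log2 fold change was -1.28 and passed (adjusted p = 0.00581). Its relative Insig2, with the same role, was at 18.0, 19.8 and 22.4 CPM in mutants and 27.9, 28.1 and 28.4 CPM in WT spleens, without overlap (log2 -0.49 ± 0.18, adjusted p = 0.127). The share of Insig1 in the pair per exon length was 50.3 ± 12.4% in mutants and 57.0 ± 1.10% in WT spleens (exact permutation p = 0.4, also 0.4 adjusted).

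Scap itself was at 115, 55.3 and 115 CPM in mutants and 77.9 to 80.7 CPM in WT spleens (adjusted p = 0.595 by edgeR). Mutant 2 lay below and mutants 1 and 3 above every WT spleen, and without mutant 2 Scap passed as higher (log2 0.54, adjusted p = 0.0199). For Scap as for Insig1, calls over all genes could also rise with a mutant left out. Stard4, a carrier that moves cholesterol between membranes, was at 36.6, 29.3 and 72.0 CPM in mutants and 25.4, 26.8 and 26.5 CPM in WT spleens (log2 0.81 ± 0.36, adjusted p = 0.182). With sex as a term, where mutant 3 alone sets the effect, the log2 fold change of Stard4 was 1.46.

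The fatty acid branch contained the largest difference of the 30 genes. Scd1 encodes the stearoyl-CoA desaturase that puts the first double bond into saturated fatty acids (ENSMUSG00000037071, chromosome 19, 44394455 to 44407879). It was at 5.72, 8.26 and 48.9 CPM in mutants 1, 2 and 3, against 505, 517 and 543 CPM in WT spleens. The groups were far apart, and mutant 3 kept more Scd1 than the other 2 mutants. The mean was 20.9 ± 24.2 CPM in mutants and 522 ± 19.6 CPM in WT spleens, a fitted 24.9-fold fall (log2 -4.64 ± 0.93, adjusted p = 0.0308 by edgeR). With sex as a term, where mutant 3 alone sets the effect, the log2 fold change was -3.42. The call was lost by edgeR without WT 1, 2 or 3 (adjusted p = 0.115, 0.117 and 0.126).

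Per exon length, in TPM (counts scaled by exon length and library size), Scd1 ranked 1 among the 30 genes in WT spleens, with a mean of 238, and 20 in mutants, with a mean of 12.5. Acly ranked 1 in mutants at 98.7 TPM and 3 in WT spleens at 65.4 TPM.

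Scd1 is abundant in fat. Of the adipocyte markers, Adipoq, Plin1, Cidec, Lep and Cfd were at 0 to 0.0574 CPM in mutants and 0 to 2.41 CPM in WT spleens, each with its highest value in WT 3. Adipoq was at 0.0270, 0 and 0.0126 CPM in mutants and 0.261, 0.0651 and 0.633 CPM in WT spleens. Pnpla2, the most abundant gene of the list, was at 193, 212 and 87.8 CPM in mutants and 94.2 to 106 CPM in WT spleens. Lpl was at 7.84, 92.0 and 10.5 CPM in mutants and 25.2 to 27.9 CPM in WT spleens, so mutant 2 alone lay above them. Fabp4 was at 27.5, 44.2 and 143 CPM in mutants and 5.17 to 8.66 CPM in WT spleens. Car3 was at 62.9, 1.53 and 3.27 CPM in mutants and 0.220, 0.299 and 3.36 CPM in WT spleens, so mutant 1 alone lay above them. Of the 10 adipocyte markers 5 passed the expression filter and 1 rose, Fabp4, which macrophages and endothelium also express. The adipocyte list summed to 292, 350 and 245 CPM in mutants and 128 to 145 CPM in WT spleens, nearly all from Pnpla2, Fabp4, Lpl and Car3. The 8 pancreas markers found, led by Cela1, summed to 8.84 to 55.3 CPM in mutants and 16.7 to 25.1 CPM in WT spleens. Cela1 made up 8.81 to 54.5 CPM of this in mutants and 15.5 to 24.0 CPM in WT spleens. Each other pancreas marker was at most 0.317 CPM in any spleen, with a lower mean in mutants. B-cell markers fell in the same 3 mutants as Scd1, where they summed to 101, 74.0 and 44.2 CPM in mutants 1, 2 and 3. Cd79b made up 57.3, 31.2 and 9.43 CPM of these sums, and the order among mutants differed from marker to marker. The part of the adipocyte, pancreas and B-cell markers in this result was not tested.

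Scd2, a second desaturase of the same reaction on the same chromosome (44293674 to 44306864), did not pass. It was at 215, 89.9 and 93.5 CPM in mutants and 110, 96.0 and 114 CPM in WT spleens (log2 0.32 ± 0.37, adjusted p = 0.601 by edgeR). Scd1 made up 2.89%, 9.30% and 36.8% of the pair per exon length in mutants and 83.7%, 85.7% and 84.2% in WT spleens. The means were 16.3 ± 18.0% in mutants and 84.5 ± 1.07% in WT spleens (exact permutation test, p = 0.1, again its lower limit, adjusted p = 0.15). The balance of the pair thus lay with Scd2 in every mutant and with Scd1 in every WT spleen.

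**Figure D3:**
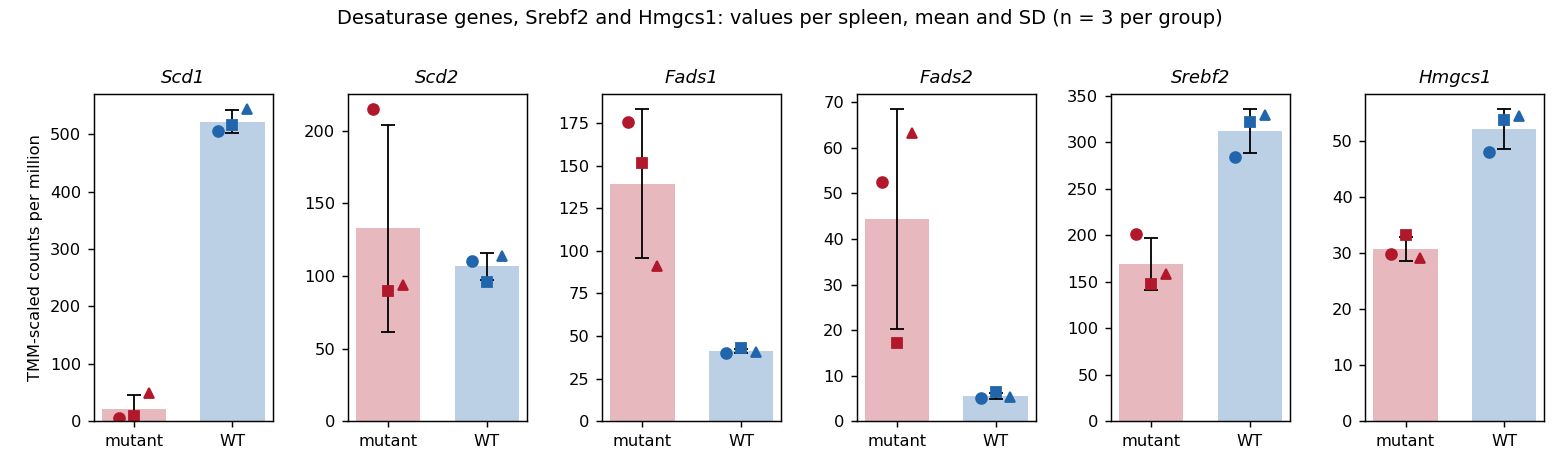
Values per spleen in TMM-scaled CPM for 4 desaturase genes, Srebf2 and Hmgcs1, with bars for the mean, error bars for the SD (n = 3 per group), and each gene on its own axis from 0. Scd1, Srebf2 and Hmgcs1 are lower in all 3 mutants, Fads1 and Fads2 higher in all 3, and Scd2 overlaps.

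The 3 enzymes that build the saturated chain had positive fold changes and did not pass. Acly, which splits citrate into acetyl-CoA, was at 183, 174 and 211 CPM in mutants and 145, 159 and 160 CPM in WT spleens (log2 0.29 ± 0.16, adjusted p = 0.269 by edgeR). Acaca, the acetyl-CoA carboxylase of the committed step, was at 62.1, 24.9 and 33.3 CPM in mutants and 20.1, 22.0 and 23.1 CPM in WT spleens (log2 0.88 ± 0.36, adjusted p = 0.156). Fasn, the fatty acid synthase, was at 195, 64.8 and 223 CPM in mutants and 87.0, 89.6 and 92.2 CPM in WT spleens (log2 0.84 ± 0.44, adjusted p = 0.249). Mutant 2 was the lowest mutant in all 3 genes, and for Fasn it lay below every WT spleen. Without mutant 2, Fasn and Acaca passed as higher (log2 1.22 and 1.14, adjusted p = 0.00436 and 0.0397). Calls over all genes could also rise with a mutant left out, so these 2 calls are not particular to the pathway.

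The mutants therefore differed from one another across the pathway. The median difference from the WT mean over the 30 genes was -0.37, -0.13 and -0.12 on the log2 scale in mutants 1, 2 and 3, where the medians over all genes tested were -0.05, -0.02 and -0.02. For the 19 mevalonate and cholesterol enzymes it was -0.43, -0.01 and -0.15. For the 4 fatty acid genes other than Scd1 it was 1.07, -0.04 and 0.53, a trimming made after the values were seen. Of the 5 fatty acid genes, Acaca and Scd2 were highest in mutant 1, Acly and Fasn in mutant 3, and Scd1 in the WT spleens. The summed macrophage markers were highest in mutant 2. Megakaryocyte markers, led by Itga2b, summed to 3218, 1255 and 4655 CPM over 10 genes in mutants 1, 2 and 3 and 366 to 709 CPM in WT spleens, and 4 of the 10 rose. The part of these cell markers in the differences was not tested.

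Of 24 other fatty acid genes outside the 30, 5 rose in the mutants and 0 fell, or 20.8% against a background of 5.08% higher, with a median log2 fold change of 0.56, 21 genes above 0 and 3 below. At an unadjusted p under 0.05 none of the 24 was lower, where 15.0% of all genes were. DESeq2 and limma-voom also gave 0 lower, where they called 2809 and 1949 of all genes lower. The 5 were Fads1, Fads2, Hsd17b12, Acsl1 and Mlxipl, the last 2 named after their values were seen. Without any single WT library 0 of the 24 passed, without mutant 1 the number was 8, and without mutant 2 or by DESeq2 it was 9. With limma-voom it was 5, with sample weights 8, and with separate group variances 3. Over all 19573 genes the number higher was 2841 by DESeq2, 977 with limma-voom, 1842 with sample weights and 727 with separate group variances. It also changed with a library left out, as given under how the results depend on the processing.

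Fads2 and Fads1 encode the desaturases that make polyunsaturated fatty acids. Fads2 was at 52.5, 17.2 and 63.3 CPM in mutants, against 5.08, 6.34 and 5.38 CPM in WT spleens. Its mean was 44.3 ± 24.1 CPM in mutants and 5.60 ± 0.657 CPM in WT spleens (log2 2.98 ± 0.51, adjusted p = 0.0212 by edgeR). Fads1 was at 176, 152 and 90.9 CPM in mutants and 40.1, 42.7 and 40.9 CPM in WT spleens (log2 1.76 ± 0.27, adjusted p = 0.0164). The groups did not overlap in either gene, so Fads1 and Fads2 rose in the same 3 spleens in which Scd1 fell. Both calls were lost without WT 1, 2 or 3, where the adjusted p was 0.101 to 0.122 by edgeR. Mutant 3, which alone sets the effect with sex as a term, lay above the WT mean by 1.14 for Fads1 and 3.50 for Fads2 (log2).

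Hsd17b12, a reductase of the elongation cycle for long chains, rose to 72.2 ± 13.5 CPM in mutants, against 35.5 ± 1.76 CPM in WT spleens (log2 1.02 ± 0.19, adjusted p = 0.0262 by edgeR). Mutant 3, which alone sets the effect with sex as a term, lay above the WT mean by 0.71 on the log2 scale. Acsl1, which activates fatty acids with coenzyme A, rose to 150 ± 44.1 CPM in mutants, against 58.8 ± 13.6 CPM in WT spleens (log2 1.35 ± 0.29, adjusted p = 0.0359). It did not pass without mutant 3 (adjusted p = 0.0617). Mlxipl, the glucose-responsive factor ChREBP, was low, at 1.13, 1.89 and 1.47 CPM in mutants and 0.0686, 0.0781 and 0.317 CPM in WT spleens (log2 3.26 ± 0.73, adjusted p = 0.0400). Mlxipl did not pass without mutant 3 (adjusted p = 0.0707 by edgeR). Mutant 3, which alone sets the effect with sex as a term, lay above the WT mean by 3.31 on the log2 scale. The calls of Hsd17b12, Acsl1 and Mlxipl were lost without WT 1, 2 or 3. Tecr, another reductase of elongation and the most abundant gene of the list, was at 222 ± 37.4 CPM in mutants and 211 ± 8.54 CPM in WT spleens (adjusted p = 0.817).

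Cell cycle markers, led by Mki67, summed to 2285, 4597 and 2950 CPM in mutants and 671 to 1145 CPM in WT spleens, and 8 of 10 rose. Neutrophil markers, led by S100a9, summed to 624, 2655 and 1354 CPM in mutants and 220 to 396 CPM in WT spleens, with 4 of 10 higher. Prtn3 made up 410 CPM of the sum in mutant 1, where 6 of the 10 genes lay below the WT mean and S100a9 was at 23.1 CPM, against 65.6 to 104 CPM in WT spleens. T-cell markers, led by Lck, summed to 37.0, 321 and 29.7 CPM in mutants and 938 to 1133 CPM in WT spleens, with 4 of 10 lower. Cd4 made up 210 CPM of the sum in mutant 2, against 86.2 to 108 CPM in WT spleens. In that mutant 9 of the 10 genes lay below the WT mean, and Lck was at 27.4 CPM, against 152 to 185 CPM in WT spleens. Erythroid markers, led by Hbb-bs, summed to 5098, 51544 and 3728 CPM in mutants and 50692 to 83503 CPM in WT spleens. Most of that sum was Hbb-bs and Hba-a1, both with negative fold changes that did not pass, while 7 of the 10 erythroid genes had positive ones and 2 rose, Tal1 and Epor. The part of these markers in the results on fatty acid genes was not tested.

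**Figure D4:**
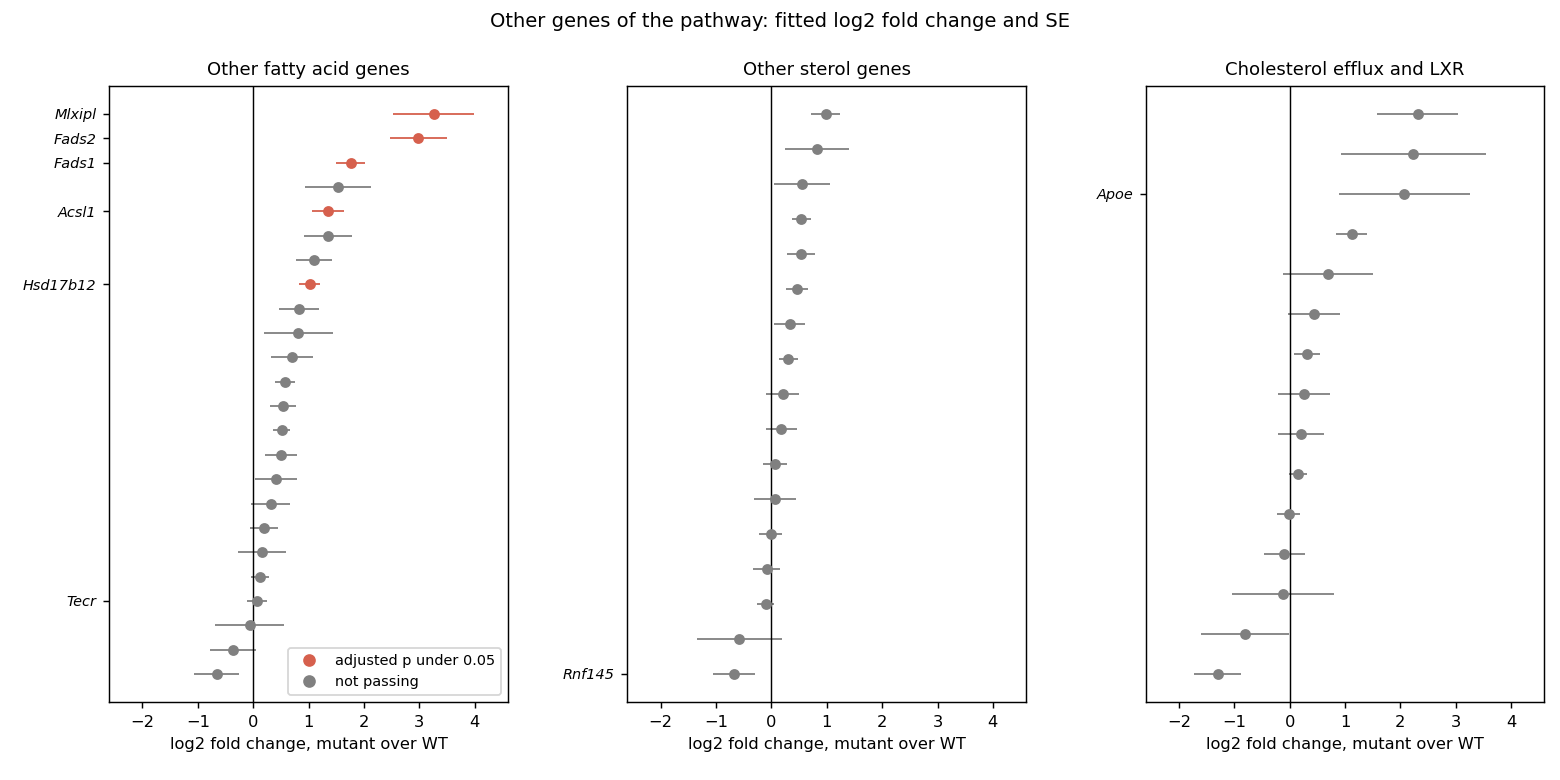
Fitted log2 fold change of mutant over WT with SE for further genes of the pathway in 3 lists, sorted by value, with genes past an adjusted p of 0.05 in red and only the genes named in the text labelled. The 5 red genes, Mlxipl, Fads2, Fads1, Acsl1 and Hsd17b12, all lie in the fatty acid list and above 0.

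The other sterol genes did not pass, with 0 of 19 higher and 0 lower by edgeR. At an unadjusted p under 0.05, 2 were higher and 1 lower, where 16.2% of all genes were higher and 15.0% lower. DESeq2 called 3 higher and limma-voom 0. Without mutant 2 the test gave 2 higher and 2 lower, in a fit where calls over all genes may differ too. Over all 19573 genes DESeq2 called 2841 higher and limma-voom 977. Rnf145, a sterol-regulated ubiquitin ligase and the most abundant gene of that list, had a log2 fold change of -0.67 ± 0.38 (adjusted p = 0.280 by edgeR).

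In the list of cholesterol efflux and LXR genes 0 of 15 passed by edgeR in either direction. At an unadjusted p under 0.05, 2 were higher and 1 lower, against 16.2% and 15.0% of all genes. DESeq2 also called 2 higher and 1 lower, and limma-voom 0. Over all 19573 genes DESeq2 called 2841 higher and 2809 lower, and limma-voom 977 and 1949. Apoe, the apolipoprotein that macrophages secrete and the most abundant gene of the list, was at 512, 12597 and 1025 CPM in mutants and 1061, 1097 and 1208 CPM in WT spleens (adjusted p = 0.283). Mutant 2 alone lay above the WT spleens. The list's median difference from the WT mean was 1.09 on the log2 scale in mutant 2, against -0.75 and -0.13 in mutants 1 and 3. The macrophage markers given above were highest in the same animal, and their part in the result was not tested.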

How the data were processed

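Poly-A selected stranded libraries were made from total RNA of spleen pieces, per the labels' protocols. The authors deposited a table of raw counts, 1 row for each Ensembl identifier and 1 column for each spleen. The submitters' processing notes name STAR 2.5.3a, limma, mm10 and GRCm38 but not what each was used for. Which counter and strand setting were used, and how shared reads were handled, is not given in the sources used here. Of the 30 genes, 16 overlap another annotated gene, so their counts may include or lack shared reads.

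Of 31771 identifiers, 31669 matched a symbol. Positions and summed exon lengths came from GENCODE M21 (GRCm38). Column names matched the sample titles, and 0 columns had no sample. Replicate numbers follow accession order and pair no samples. No 2 libraries agreed within sampling noise (chi-square per gene of 22.0 or more). Nothing says how the animals were related, so p-values measure only the spread between these samples.

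Genotypes were compared with robust quasi-likelihood fits (edgeR 4.0.16, R 4.3.3) after filtering low counts by group and TMM scaling. Differences of single mutants used log2 CPM with a prior count of 2. Shares were compared by exact permutation over samples. DESeq2 1.42.0 and limma-voom 3.58.1 were alternatives. Sex was read from Xist and Ddx3y. The procedure was run on simulated data with the same spread in both groups, so that run does not cover the unequal spread of these spleens. The genes and lists were chosen with earlier results of these data known.

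Named genes are the 30, up to 3 with the smallest p among the passing genes and the most abundant gene of each further pathway list, the most abundant of each marker list, and Pi4ka. Of the 178 listed genes 176 were found. Xist, Ddx3y, Gm43738, Mir33, the adipocyte markers other than Pnpla2, Cd79b, Prtn3, Cd4, Hba-a1, Tal1, Epor and the genes of the closing section were named after their values were seen. Some genes of these lists are not reported here by name, in the text or in the figures.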

Additional observations from a re-analysis of the deposited data

How the results depend on the processing

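No paired analysis was possible because the labels give no replicate number that mutant and WT animals share. Over all genes, edgeR called 995 higher and 1351 lower, DESeq2 2841 and 2809, limma-voom with sample weights 1842 higher, and limma-voom with separate group variances 786 lower. Leaving out 1 library gave 4 to 2794 genes higher and 119 to 3137 lower. Of the 30 genes 0 were higher and 3 lower in the main test. The numbers were 1 higher and 5 lower by DESeq2 and 2 higher by limma-voom with sample weights. With separate group variances 1 was lower. With sex as a term mutant 3 alone set the genotype effect, so no count of genes is given for that fit. Leaving out 1 library gave 0 to 3 higher and 0 to 4 lower. The cause of these shifts was not tested. The median log2 fold change of the 30 genes lay between -0.23 (without mutant 3) and 0.015 (without WT 2) with 1 library left out. Relative log expression, upper-quartile and total-count scaling, the stricter filter, and leaving out haemoglobin and immunoglobulin genes kept the count of 3 lower and 0 higher. Without a filter on low counts 2 were lower. The median over all genes was 0.10 with TMM factors and 0.00 with upper-quartile scaling. Scd1 kept its direction in all 17 alternatives and passed in 14, with log2 values of -6.22 to -3.42. Srebf2 passed in 11 and Hmgcs1 in 10 of 17. In 6 of the 30 genes (Acat2, Mvk, Fdft1, Lss, Srebf1 and Scd2) the sign changed in at least 1 alternative. The differences in the 3 shares kept their sign with any library left out. They ranged from -78.4 to -61.5 percentage points for Scd1, 14.3 to 17.1 for Srebf1 and -13.6 to -1.79 for Insig1. Low depth limits Mlxipl, which rested on 5, 6 and 26 counts in WT 1, 2 and 3.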

Other observations

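Plin2, which coats the surface of lipid droplets, rose in the mutant spleens. It was at 181, 260 and 143 CPM in mutants 1, 2 and 3, against 34.3, 43.4 and 46.2 CPM in WT spleens. The mean was 195 ± 59.9 CPM in mutants and 41.3 ± 6.21 CPM in WT spleens (log2 2.24 ± 0.28, adjusted p = 0.0103 by edgeR's quasi-likelihood test, n = 3 each, higher in all 3 mutants).

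Between and beside Scd1 and Scd2 on chromosome 19 lie Scd3 and Scd4, desaturase genes that are little expressed in spleen. Scd3 was at 11.6 CPM in mutant 1, against 0.0143 and 0.138 CPM in mutants 2 and 3 and 0.143 to 0.365 CPM in WT spleens. Scd4 was at 0.513, 0.0574 and 0.377 CPM in mutants and 0.690 to 1.45 CPM in WT spleens. Neither passed (adjusted p = 0.255 and 0.196 by edgeR). Mutant 1 also held the highest Scd2 and Acaca of all 6 spleens. How reads shared by these related genes were assigned is not given in the sources used here.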
